A study of Rattus norvegicus with 18 samples.

Results

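The effect of muscle NT3 delivery in injured rats was examined by comparing dorsal root ganglia (DRG) of 6 bPYX+NT3 rats (rats 2, 11, 17, 23, 39 and 40) with those of 6 bPYX+GFP rats (rats 5, 15, 18, 21, 52 and 57), which are 12 of the 18 lister hooded rats sequenced. All 12 rats had both corticospinal tracts cut in the medullary pyramids (bPYX, bilateral pyramidotomy) and, the day after, a unilateral injection into the forelimb flexors of an AAV1 viral vector driven by the broadly active CMV promoter. The vector encoded human neurotrophin-3 (NT3) in bPYX+NT3 rats and green fluorescent protein (GFP) in bPYX+GFP rats, so that injury, injection and vector type were shared and the groups differed in the encoded protein. The C6-C8 ganglia of the treated side were taken 10 weeks after injury and pooled within each rat into 1 library of poly(A) RNA from whole ganglia. The other 6 rats were naïve (unoperated and not injected) and are used only as background. The groups follow the rat number of each deposited count column. The recorded titles name another group for 17 of the 18 rats, but the heading of the deposited table pairs each rat number with a sample number, and the titles of those sample numbers fit the rats' groups in 18 of 18 rats.

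NT3 is a neurotrophin made by muscle and muscle spindles. It binds the receptor TrkC (Ntrk3) on the endings of proprioceptive afferents, the sensory neurons that report muscle length and tension, and the complex is carried back to the cell body in the DRG. Trk receptors signal through the ERK kinase cascade, which induces immediate early genes, ETS-family transcription factors and feedback inhibitors such as the sprouty proteins. Pyramidotomy cuts axons in the brain and leaves DRG axons intact. A DRG also holds satellite glia around the neurons, Schwann cells, vessels, macrophages and a connective tissue capsule that is continuous with the meninges and borders on fat.

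The read-pairs counted on mRNA identifiers ranged from 10850839 to 15411481 in bPYX+NT3 rats and from 10057787 to 13606184 in bPYX+GFP rats. Neuronal, proprioceptor and glial markers were present in the 12 rats, with Prph (peripherin) at 147 to 454 CPM (read counts scaled to the library size), Pvalb (parvalbumin, a proprioceptor marker) at 98.1 to 150 CPM and Fabp7 (a fatty acid binding protein of satellite glia) at 29.8 to 102 CPM. Calca, the CGRP precursor gene of peptidergic nociceptors, was counted at only 2.74 to 5.95 CPM. Some other sensory neuron genes were listed at 0 (below), and whether Calca reads were counted in full was not tested. 2 libraries stood apart from the others in how their reads were assigned. Read-pairs assigned to no feature made up 30.8% in rat 11 (bPYX+NT3) and 31.7% in rat 57 (bPYX+GFP), against 32.9% to 34.2% in the other 10 injured rats. Their share of read-pairs aligned to several locations was 19.7% and 19%, against 20.7% to 22.3%. The same rats held the highest scores on the first principal component, which took 53.8% of the variance among the 12 rats, and rat 17 (bPYX+NT3) held the lowest score on the second, which took 12.3%. None of 5 library measures passed the threshold between the groups after adjustment (smallest adjusted exact permutation p = 0.0758, for the share of reads taken by the 20 highest genes).

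**Figure D1:**
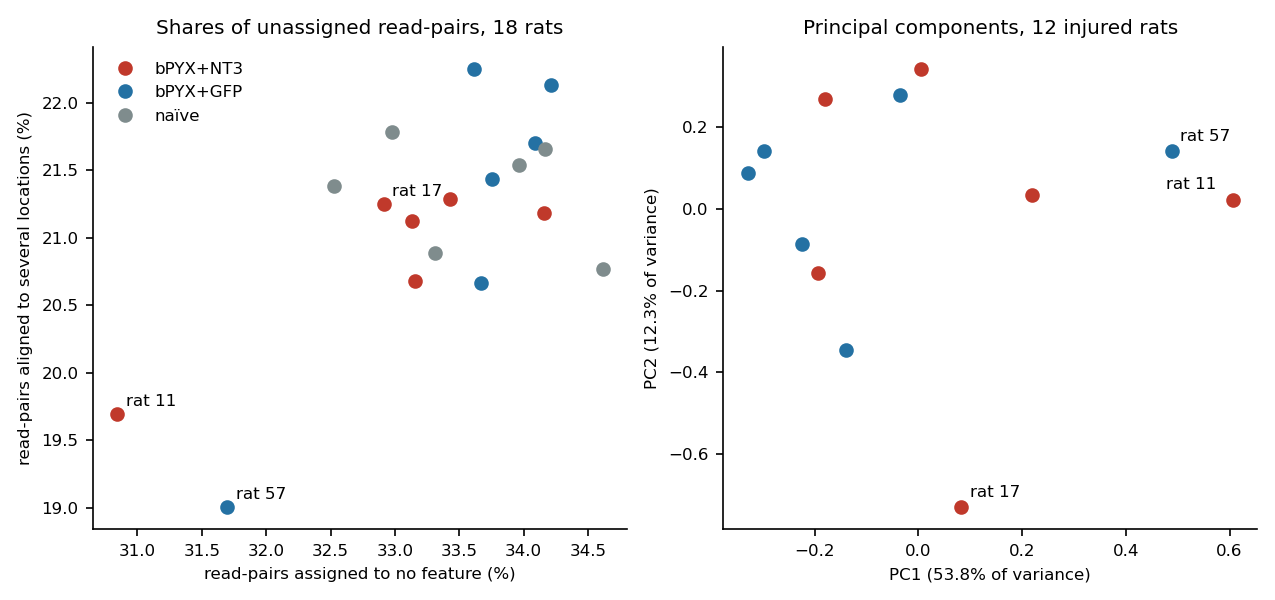
On the left, share of read-pairs assigned to no feature (x, %) against share aligned to several locations (y, %) in each of the 18 rats, coloured by group. On the right, scores of the 12 injured rats on the first and second principal components of log2 CPM. Rats 11 and 57, 1 of each injured group, lie apart on both plots, and rat 17 lies apart on the second component.

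No gene passed the threshold between bPYX+NT3 and bPYX+GFP rats after adjustment over all genes. The comparison was fitted with edgeR's quasi-likelihood test over the 11623 identifiers that exceeded 10 reads in 6 or more of the injured rats, and 0 genes (0%) had a Benjamini-Hochberg adjusted p under 0.05, the smallest adjusted p being 0.851. At an unadjusted edgeR p under 0.05, the threshold that the study used, 201 genes (1.73%) were called, 125 of them higher in bPYX+NT3 rats (1.08%) and 76 lower (0.654%). DESeq2 likewise gave 0 genes after adjustment and called 211, with 122 higher and 89 lower. A p that is uniform over genes would put 5% below this threshold, or 581 genes. Hereafter a gene is "called" when its unadjusted edgeR p is under 0.05, which is a description of these 12 rats and not a discovery at a controlled error rate. The median log2 fold change over all genes was 0.0049. With library size alone as the scaling, 167 genes were called higher and 41 lower, so that 80.3% of calls were higher in place of 62.2%, and the median of all genes moved to 0.042.

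**Figure D2:**
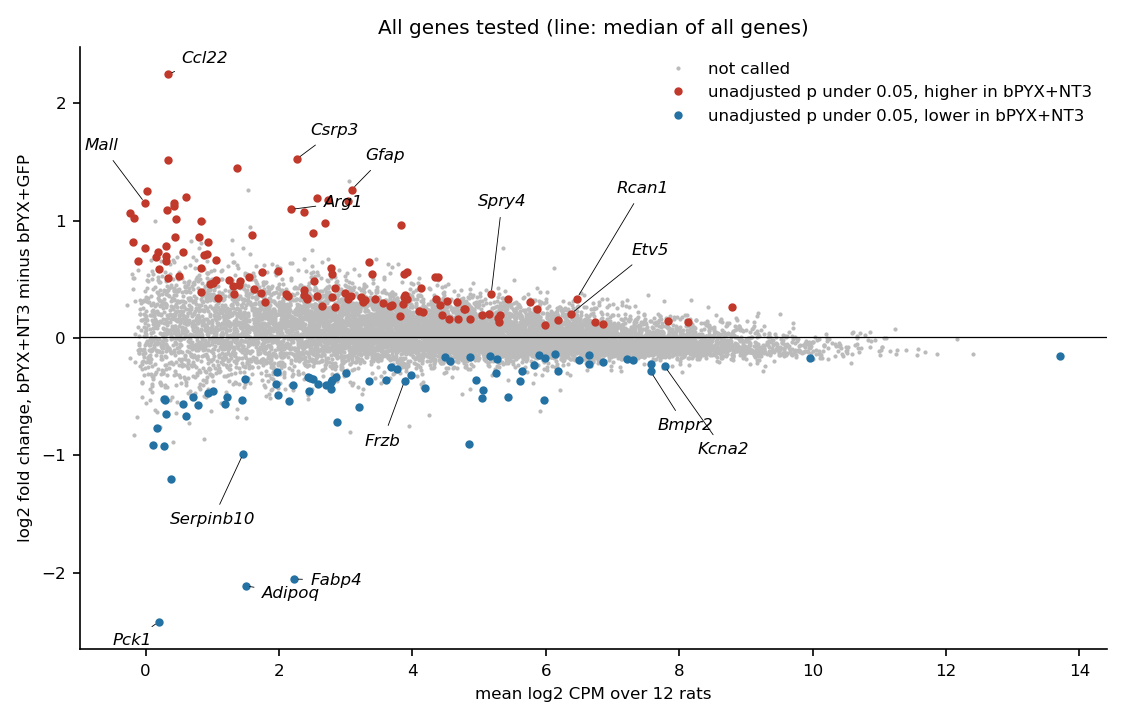
Log2 fold change of bPYX+NT3 against bPYX+GFP rats (y) against mean log2 CPM over the 12 rats (x) for all 11623 identifiers tested, with the 201 called genes in colour. The line marks the median of all genes, and the largest differences, such as those of Ccl22 and Pck1, lie at low CPM.

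The number of called genes turned on single rats. With rat 57 left out, the same edgeR test called 1509 genes higher (13.1% of 11556) and 782 lower (6.77%), still with 0 genes after adjustment (smallest adjusted p = 0.251). Without rats 57 and 11 together it called 858 higher (7.48% of 11477) and 604 lower (5.26%), and 1398 of the genes called were common to both fits, which is 61.0% of the first list and 95.6% of the second. In the other direction, leaving out rat 11 alone gave 95 called genes, and leaving out rat 15, 17 or 18 gave 112, 125 and 127, while 390 were called without rat 23. Rats 11 and 17 together held the highest value of most genes called higher, rat 11 of 50 and rat 17 of 47 of the 125. Without these 2 rats 31 genes were called higher (0.27% of 11480) and 40 lower (0.348%), of which 17 and 16 were called in the 12 rats as well. That fit has 4 bPYX+NT3 rats, and the 2 rats were picked for their high values, so fewer higher calls follow in part from its construction. These alternatives were chosen after seeing the data, apart from the leave-one-out fits.

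**Figure D3:**
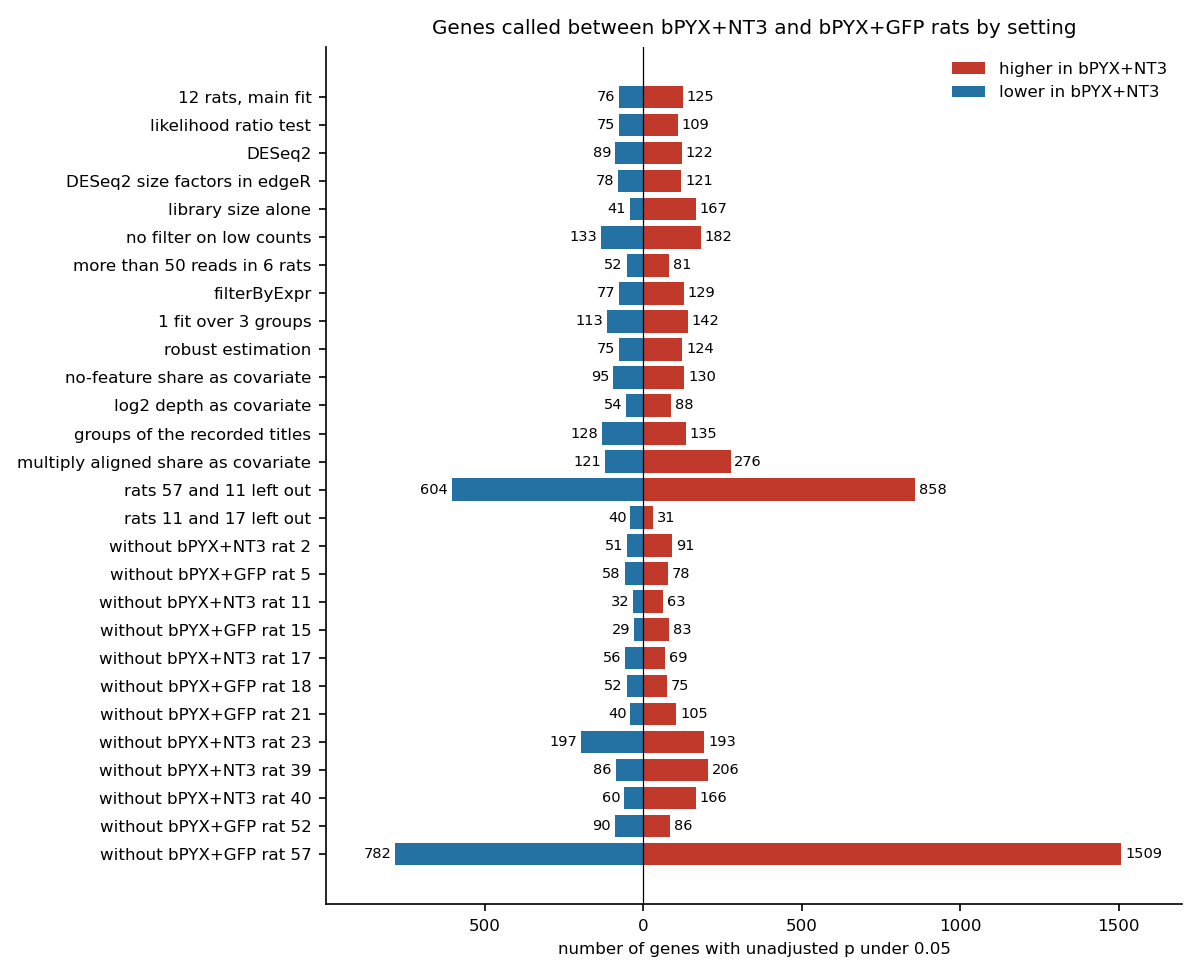
Number of called genes (x), higher in bPYX+NT3 rats to the right and lower to the left, for the main fit and each alternative (y). Without bPYX+GFP rat 57 the bars reach 1509 and 782, against 125 and 76 in the main fit.

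Genes whose 6 bPYX+NT3 values did not overlap with the 6 bPYX+GFP values were few, namely 6 higher (0.0516% of the genes tested) and 0 lower (0%). With random group labels a gene separates, in either direction, with a probability of 0.00216. The share seen here was below that, so these genes are no excess over chance and are described as values only. Etv5 was the most abundant of the 6. It encodes an ETS transcription factor induced by receptor tyrosine kinases through ERK. Its level was 81.4 to 96.0 CPM in bPYX+NT3 rats (median 90.0) and 73.0 to 80.2 CPM in bPYX+GFP rats (median 77.6), while naïve rats spanned 79.2 to 91.4 CPM. All 6 bPYX+NT3 rats lay above all 6 bPYX+GFP rats, with rats 2 and 11 highest and rat 17 lowest in its group. The log2 fold change was 0.21 ± 0.06 (SE; edgeR p = 0.00301, exact permutation p = 0.00216, the smallest that 6 rats against 6 allow). Any gene whose groups do not overlap has this exact permutation p, so it adds nothing to the separation itself. Etv5 was called in each of the 12 leave-one-out fits and also without rats 11 and 17, with a log2 fold change of 0.21.

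Arg1 encodes arginase 1, which makes ornithine for polyamine synthesis and is induced in injured sensory neurons and in some macrophages. In bPYX+NT3 rats it ranged from 4.22 to 14.5 CPM (median 4.62), and in bPYX+GFP rats from 2.27 to 4.14 CPM (median 3.05). Rats 17 and 11 were far above the rest, at 14.5 and 8.56 CPM, and the other 4 bPYX+NT3 rats lay within 4.22 to 4.73 CPM, just above the highest bPYX+GFP rat. The log2 fold change of Arg1 was 1.1 ± 0.32 (SE; edgeR p = 0.00393, exact permutation p = 0.00216), and 0.48 without rats 11 and 17 (called). Rad51ap1, a DNA repair protein, did not overlap either, at 5.08 to 6.52 CPM against 3.92 to 5.05 CPM (log2 fold change 0.34 ± 0.11, edgeR p = 0.0096, exact permutation p = 0.00216). Rad51ap1 is outside the rule for named genes and was chosen because its groups did not overlap, which fixes its exact permutation p. The other 3 are rare transcripts. Mall, a membrane raft protein, spanned 0.987 to 1.60 CPM against 0.189 to 0.83 CPM. Padi3, an enzyme that converts arginine to citrulline in hair and skin proteins, spanned 0.835 to 2.36 CPM against 0.31 to 0.756 CPM, and the identifier NM_001008882, for which no symbol was found, 0.767 to 1.52 CPM against 0.283 to 0.756 CPM. With 12.3, 13.1 and 10.2 reads per rat on average, counting error alone is large for these 3. They lie near the limit of 10 reads, and the filter passed them mainly through bPYX+NT3 rats, where they were higher. Their separation therefore follows in part from the filter. Padi3 and NM_001008882 were not tested without rat 57, and each was called in 6 of the 12 leave-one-out fits.

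Transcripts of the NT3 pathway itself could be followed only in part. Ntf3, the rat gene of NT3, and Ntrk3, its receptor TrkC, were listed at 0 in all 18 rats, under 4 and 3 RefSeq identifiers. Tac1 and P2rx3, which sensory neurons express strongly, were listed at 0 as well. Among symbols with several listed identifiers 28.5% (138 of 485) were at 0 in all rats, against 10.3% (1568 of 15223) of symbols with 1 identifier. Nothing about the level of Ntf3 or Ntrk3 follows from these zeros.

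Of the 10 neurotrophin ligands and receptors, 6 were tested and 0 called, beside 1.73% of all genes. Ngfr, the low-affinity receptor p75 that binds all neurotrophins, had 318 to 538 CPM (median 347) in bPYX+NT3 rats against 271 to 457 CPM (median 293) in bPYX+GFP rats, so that the groups overlapped. Its log2 fold change was 0.27 ± 0.16 in 12 rats (SE; edgeR p = 0.112, exact permutation p = 0.132), 0.39 without rat 57 (called) and 0.16 without rats 11 and 17 (not called). Ntrk2 (TrkB, receptor of BDNF and NT4) was at 0.04 ± 0.06 (edgeR p = 0.553, exact permutation p = 0.511), Sort1 (sortilin, co-receptor of p75) at -0.0078 ± 0.05, Kidins220 (a scaffold of Trk receptors) at -0.04 ± 0.05 and Bdnf at 0.29 ± 0.33 (edgeR p = 0.391, exact permutation p = 0.297). Ntf4 averaged 0.25 reads per rat, too few to test.

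A list of 5 genes that the study's text relates to NT3 had all 5 called higher here. The study chose them on these same rats, so that the count is not independent evidence of their direction. Vgf encodes a secreted neuropeptide precursor that neurotrophins induce in sensory neurons. Its level was 11.4 to 29.6 CPM in bPYX+NT3 rats (median 16.6) and 8.58 to 14.9 CPM in bPYX+GFP rats (median 12.4). Rats 11 and 17 were highest, at 29.6 and 21.6 CPM, rats 2 and 40 also lay above every bPYX+GFP rat, and rats 23 and 39 lay within the bPYX+GFP range. For Vgf the log2 fold change was 0.55 ± 0.22 (SE; edgeR p = 0.027, exact permutation p = 0.0541), and 0.21 without rats 11 and 17 (not called).

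Spry4, a sprouty protein that damps ERK signalling, spanned 31.7 to 52.5 CPM (median 39.5) against 27.5 to 37.5 CPM (median 31.8) and was called in all 12 leave-one-out fits, with a log2 fold change of 0.37 ± 0.12 (SE; edgeR p = 0.00822, exact permutation p = 0.0238). Rats 17 and 11 again led, and rat 40, at 31.7 CPM, lay below the bPYX+GFP median. Plk2, a kinase induced by neuronal activity, spanned 53.5 to 80.3 CPM against 44.7 to 59.8 CPM (log2 fold change 0.24 ± 0.10, edgeR p = 0.025, exact permutation p = 0.0346), and 5 of 6 bPYX+NT3 rats lay above all bPYX+GFP rats. Rasgef1c, a guanine nucleotide exchange factor for Ras-family proteins, had 13.0 to 22.2 CPM against 12.0 to 15.4 CPM (0.33 ± 0.14, edgeR p = 0.0363, exact permutation p = 0.0498). Rtn4ip1, a mitochondrial partner of Nogo, had 19.5 to 29.2 CPM against 14.8 to 22.4 CPM (0.33 ± 0.13, edgeR p = 0.0274, exact permutation p = 0.0433). Vgf was called in 8 of the 12 leave-one-out fits, Plk2 and Rtn4ip1 in 9 and Rasgef1c in 6. Without rats 11 and 17, 0 of the 5 were called and their median log2 fold change was 0.20 in place of 0.33.

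**Figure D4:**
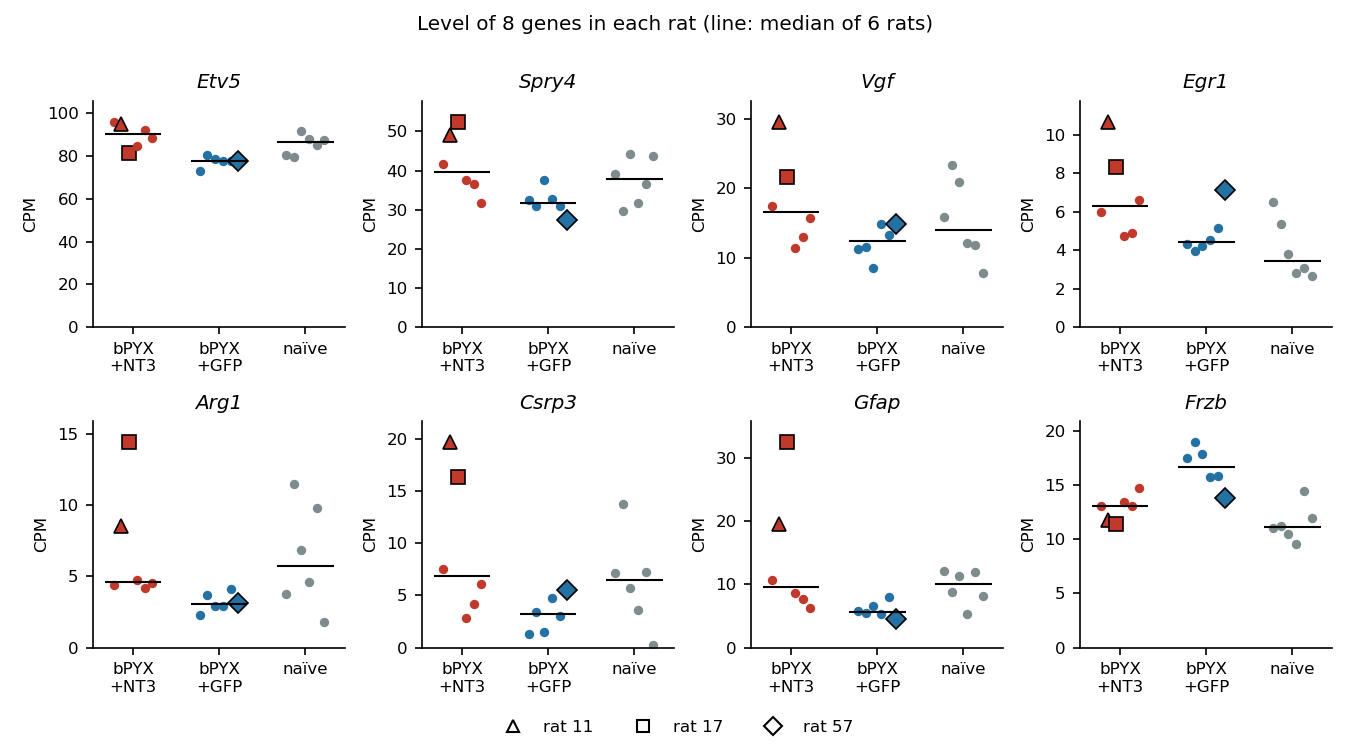
Level in CPM (y) of 8 genes in each rat by group (x), with the median of 6 rats as a line and rats 11, 17 and 57 drawn as a triangle, a square and a diamond. Etv5 is higher in all 6 bPYX+NT3 rats than in any bPYX+GFP rat, whereas Csrp3, Gfap and Arg1 reach their highest values in rats 11 and 17.

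The promoters of Vgf and Plk2 both hold the palindromic cyclic AMP response element TGACGTCA, which binds CREB, a factor that Trk signalling can activate. Rcan1, one of the named genes below, holds it as well. The 250 bases before the annotated start, from RefSeq on GRCr8, are shown because these are 3 of the 4 genes called higher with this motif (Nos1 is the other), and capitals mark the motif.
Vgf, chr12:25277021-25277270, minus strand: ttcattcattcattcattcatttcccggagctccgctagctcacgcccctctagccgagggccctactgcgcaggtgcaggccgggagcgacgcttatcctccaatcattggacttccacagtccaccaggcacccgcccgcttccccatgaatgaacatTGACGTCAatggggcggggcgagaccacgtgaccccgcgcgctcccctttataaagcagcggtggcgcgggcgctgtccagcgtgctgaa
Plk2, chr2:43702286-43702535, plus strand: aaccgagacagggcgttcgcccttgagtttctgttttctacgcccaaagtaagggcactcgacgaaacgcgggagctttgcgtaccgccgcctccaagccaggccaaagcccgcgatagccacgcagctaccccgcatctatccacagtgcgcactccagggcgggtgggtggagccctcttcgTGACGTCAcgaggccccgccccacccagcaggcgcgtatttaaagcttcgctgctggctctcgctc
Rcan1, chr11:45118237-45118486, minus strand: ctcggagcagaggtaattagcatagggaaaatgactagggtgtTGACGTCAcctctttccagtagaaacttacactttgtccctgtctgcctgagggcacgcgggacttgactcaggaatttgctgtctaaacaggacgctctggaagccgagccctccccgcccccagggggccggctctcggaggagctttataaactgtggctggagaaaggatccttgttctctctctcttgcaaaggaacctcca
The motif begins 90 bases before the start in Vgf, 66 in Plk2 and 207 in Rcan1. It was found in 4.21% (4 of 95) of the promoters of genes called higher, in 0% (0 of 54) of those called lower, in 2.90% (257 of 8869) of those of genes tested and in 1.70% (466 of 27457) of all promoters in the table. These are counts of a letter string that is its own reverse complement, and they do not show binding.

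Of 13 tested ERK feedback and target genes, 3 were called higher (Etv5, Spry4 and Vgf), beside 1.08% of all genes, and 0 lower. Spry4 and Vgf are also among the 5 genes the study chose on these rats. The median log2 fold change of the 13 was 0.12 beside 0.0049 over all genes, and without rats 11 and 17 only Etv5 was called. Dusp6, the phosphatase that switches ERK off, spanned 15.6 to 30.6 CPM in bPYX+NT3 rats and 17.9 to 22.4 CPM in bPYX+GFP rats and was not called (0.13 ± 0.14). Of 16 immediate early genes, 2 were called higher, again beside 1.08%, and 0 lower. Egr1, a zinc-finger factor that responds to ERK, had 4.73 to 10.7 CPM (median 6.30) against 3.97 to 7.15 CPM (median 4.43), with rats 11, 17 and 57 the highest of the 12. Its log2 fold change was 0.49 ± 0.22 (edgeR p = 0.0467, exact permutation p = 0.0693) and 0.17 without rats 11 and 17 (not called). Junb, a subunit of AP-1, had 0.998 to 3.88 CPM against 0.378 to 1.66 CPM (0.86 ± 0.39, edgeR p = 0.0444, exact permutation p = 0.0736). It was called in 6 of the 12 leave-one-out fits, and its log2 fold change was 0.25 without rats 11 and 17 (not called). Fos, the best-known member of this list, had 4.81 to 14.6 CPM against 4.86 to 10.4 CPM and was not called (0.32 ± 0.25). Rcan1, an inhibitor of the calcium-dependent phosphatase calcineurin, is in neither list. It was at 76.0 to 125 CPM in bPYX+NT3 rats (median 97.3) and 76.2 to 83.5 CPM in bPYX+GFP rats (median 78.8), with 5 of 6 bPYX+NT3 rats above every bPYX+GFP rat and rat 23 below them all. Its log2 fold change of 0.34 ± 0.10 (edgeR p = 0.00391, exact permutation p = 0.0152) was called in all 12 leave-one-out fits and without rats 11 and 17 (0.20).

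Of 20 tested genes that sensory neurons induce after axotomy, 5 were called higher (Arg1, Csrp3, Ecel1, Sprr1a and Gal), beside 1.08% of all genes, and 0 lower, with a median log2 fold change of 0.24. Csrp3, a LIM-domain protein that injured neurons share with muscle, had 2.88 to 19.7 CPM (median 6.85) against 1.32 to 5.5 CPM (median 3.22). Rats 11 and 17 stood at 19.7 and 16.3 CPM, and rats 23 and 39 lay within the bPYX+GFP range. Csrp3 had a log2 fold change of 1.53 ± 0.49 (edgeR p = 0.00743, exact permutation p = 0.039), and 0.65 without these 2 rats (not called). Gal, the neuropeptide galanin, had 8.44 to 51.4 CPM against 5.20 to 19.2 CPM (0.97 ± 0.43) and 0.15 without them. Ecel1, a peptidase of injured neurons, had 3.15 to 16.1 CPM against 2.07 to 5.43 CPM (1.07 ± 0.38, edgeR p = 0.014, exact permutation p = 0.0541). Sprr1a, a cornified-envelope protein that injured neurons also make, had 0.614 to 4.57 CPM against 0.378 to 1.43 CPM (1.13 ± 0.46). Gal and Sprr1a were chosen after their values were seen, as were Atf3, Fos and Dusp6. Atf3, the transcription factor that marks axotomised neurons most widely, was highest in rat 17 (124 CPM), spanned 28.7 to 124 CPM against 17.5 to 55.7 CPM and was not called (0.76 ± 0.39).

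Most of these values were highest in the same rats. Rat 17 held the highest value of 13 of the 20 axotomy genes and rat 11 of 4. Without both rats 19 of the 20 were tested, with a median log2 fold change of -0.02, and only Arg1 was called. Macrophage markers were highest in rat 17 as well, in 14 of 16. Their summed level was 1046 CPM in that rat, against 340 to 612 CPM in the other bPYX+NT3 rats and 378 to 615 CPM in bPYX+GFP rats. Of the 16, 0 were called, beside 1.73% of all genes. Naïve rats also varied widely, Gal from 2.25 to 34.8 CPM and Atf3 from 8.13 to 93.7 CPM. The part of macrophage RNA in the calls of Arg1 was not tested.

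**Figure D5:**
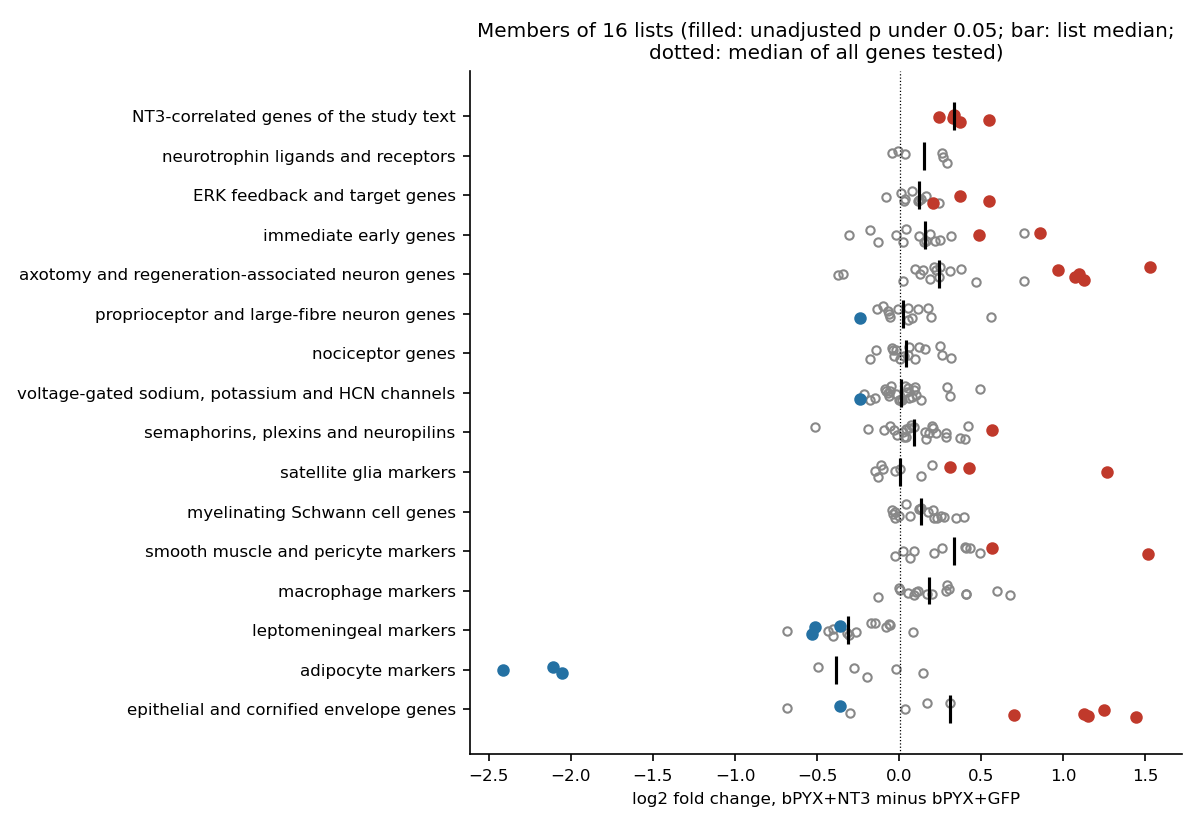
Log2 fold change (x) of the tested members of 16 lists (y), filled where called, in red when higher and blue when lower in bPYX+NT3 rats, with the list median as a bar and the median of all genes as a dotted line. The axotomy list has 5 filled points to the right, the adipocyte and leptomeningeal lists 3 each to the left, and the nociceptor list none.

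Calls among neuron-type genes are given here beside 1.73% of all genes called, 1.08% higher and 0.654% lower. At these shares 0 calls do not set lists of this size apart from all genes. Of 14 proprioceptor and large-fibre genes 0 were higher and 1 lower, with a median of 0.02, and of 16 nociceptor genes 0 were called, with a median of 0.04. Pvalb was at 99.5 to 150 CPM (median 115) in bPYX+NT3 rats and 98.1 to 139 CPM (median 106) in bPYX+GFP rats (0.05 ± 0.12, edgeR p = 0.652, exact permutation p = 0.654). The single call was Kcna2, a juxtaparanodal potassium channel that is also the 1 call among 26 sodium, potassium and HCN channels. It had 157 to 243 CPM (median 200) against 209 to 269 CPM (median 244), with rats 11, 17 and 39 below every bPYX+GFP rat (-0.24 ± 0.11, edgeR p = 0.0471, exact permutation p = 0.0758). It was called in 5 of the 12 leave-one-out fits, and not without rats 11 and 17 (-0.13). Scn9a, the sodium channel Nav1.7 of nociceptors, averaged -0.18 ± 0.13 (edgeR p = 0.212, exact permutation p = 0.297). Of 21 synaptic vesicle fusion genes 0 were called, and the most abundant, Vamp1, was at -0.07 ± 0.06. Map1b, a microtubule-associated protein of growing axons, was the most abundant of all called genes, with a lower level in bPYX+NT3 rats (log2 fold change -0.15 ± 0.06); it was chosen after its value was seen.

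Semaphorins, plexins and neuropilins, which guide axons, held 1 call among 25 tested, a higher one, beside 1.08% of all genes called higher. Plxdc1, a receptor with a plexin-like domain, had 3.23 to 4.73 CPM (median 3.94) in bPYX+NT3 rats and 1.78 to 3.52 CPM (median 2.67) in bPYX+GFP rats. 4 of 6 bPYX+NT3 rats lay above every bPYX+GFP rat, and rat 23 was the highest (0.56 ± 0.19, edgeR p = 0.00928, exact permutation p = 0.0108). Without rat 57, 10 of 25 were called higher and 0 lower, beside 13.1% of all genes called higher. Without rats 57 and 11, 8 were called higher, beside 7.48%.

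Among the glia, 3 of 11 tested satellite glia markers were called, all higher, beside 1.08% of all genes. In RNA of whole ganglia, fewer cells of a type and less RNA per cell cannot be told apart, which holds for each cell-type list here. Gfap, the intermediate filament that satellite glia induce when they react, had 6.20 to 32.5 CPM (median 9.64) against 4.54 to 7.99 CPM (median 5.63). Rats 17 and 11 were highest at 32.5 and 19.6 CPM, and rats 39 and 40 lay within the bPYX+GFP range. For Gfap the log2 fold change was 1.26 ± 0.37 (edgeR p = 0.0042, exact permutation p = 0.0108) and 0.48 without rats 11 and 17 (called). Kcnj10, the potassium channel Kir4.1 that clears potassium around neurons, had 16.2 to 24.8 CPM (median 20.3) against 12.5 to 21.7 CPM (median 13.9). Rat 57 was the highest bPYX+GFP rat, and the log2 fold change went from 0.42 ± 0.15 (edgeR p = 0.0154, exact permutation p = 0.0238) to 0.56 without it (called). Ncan, the proteoglycan neurocan, had 21.9 to 29.5 CPM against 18.6 to 26.4 CPM (0.31 ± 0.12, edgeR p = 0.0178, exact permutation p = 0.0216). Without rats 11 and 17 Kcnj10 was at 0.32 and Ncan at 0.25 (neither called), and Gfap was the only call of the list. The list as a whole had a median of 0.01 and a summed level of 1494 to 1823 CPM against 1637 to 1951 CPM. Of 18 myelinating Schwann cell genes and 24 cholesterol synthesis genes 0 were called in 12 rats, beside 1.73% of all genes, with medians of 0.13 and 0.10. Their most abundant members Pmp22, a myelin protein, and Hmgcs1, an early enzyme of the pathway, were at -0.0027 ± 0.07 and -0.04 ± 0.07. Without rat 57, 6 and 9 were called higher, respectively, and 0 lower, where 13.1% of all genes were called higher and 6.77% lower.

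Among genes of the ganglion's coverings and of fat, calls were lower in bPYX+NT3 rats. Of 16 leptomeningeal markers 0 were called higher and 3 lower (0.654% of all genes were lower), with a median log2 fold change of -0.31. Cldn11, a tight junction protein of the arachnoid, had 32.8 to 86.6 CPM (median 52.2) against 49.2 to 106 CPM (median 80.0). Rat 23 lay above the bPYX+GFP median and rat 39 was the lowest of the 12 (-0.53 ± 0.23, edgeR p = 0.0364, exact permutation p = 0.0693). The transcription factors Zic2 (-0.51 ± 0.23, edgeR p = 0.0431, exact permutation p = 0.0758) and Foxc1 (-0.36 ± 0.17, edgeR p = 0.0488, exact permutation p = 0.0714) had the same rats at their ends among bPYX+NT3 rats. Cldn11, Zic2 and Foxc1 were called in 5, 4 and 3 of the 12 leave-one-out fits. Without rats 11 and 17 none of the 3 was called, at log2 fold changes of -0.49, -0.43 and -0.33, and the median of the list was -0.33. The summed level of the list did not separate the groups, at 299.8 to 1008 CPM against 414 to 890 CPM.

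Of 8 adipocyte markers 3 were called lower, beside 0.654% of all genes, and 0 higher, with a median of -0.38. Fabp4, the fatty acid carrier of adipocytes and capillaries, had 1.27 to 8.99 CPM (median 2.73) in bPYX+NT3 rats and 1.99 to 57.3 CPM (median 6.25) in bPYX+GFP rats, with rat 5 far above the next rat, rat 15, at 13.1 CPM. The log2 fold change was -2.05 ± 0.79 (edgeR p = 0.022), while the exact permutation p on log2 CPM was 0.141. Without rat 5 it was -0.78 (not called). Pck1, the gatekeeper enzyme of glyceroneogenesis, had 0.275 to 1.75 CPM against 0.275 to 16.0 CPM (-2.42 ± 0.89, edgeR p = 0.0168, exact permutation p = 0.121). Adipoq, the fat hormone adiponectin, had 0.635 to 4.34 CPM against 0.412 to 21.2 CPM (-2.11 ± 0.73, edgeR p = 0.012, exact permutation p = 0.13). Rat 5 was the highest of the 12 for each of the 3 and for 6 of the 8 list members. Adipoq was called in all 12 leave-one-out fits. Pck1 was called in 6 of the 12, and the other fits did not test it. Without rats 11 and 17, 7 of the 8 markers were tested, Pck1 not among them. Adipoq (-2.66), Fabp4 (-2.58) and Cidea were called lower there, beside 0.348% of all genes, with a median of -0.26. Naïve rats spanned 0.633 to 20.5 CPM for Adipoq, about as widely as bPYX+GFP rats. Of 6 central nervous system markers 0 were called, beside 1.73% of all genes, and their summed level was 116 to 182 CPM against 128 to 184 CPM. Most of that sum was Pdgfra, which fibroblasts also express (means of 100.0 and 108 CPM). Of the other 5, chosen after their values were seen, Slc5a7, a choline transporter of motor neurons, averaged 24.7 and 24.5 CPM, and Mog, a myelin protein of oligodendrocytes, 8.16 and 8.91 CPM. The part of tissue composition in these calls was not tested.

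Vessel, immune and other lists are given beside 1.73% of all genes called, 1.08% higher and 0.654% lower. Of 12 smooth muscle and pericyte markers 2 were called higher, beside 1.08% of all genes, with a median of 0.33, namely Cnn1 (calponin; 0.282 to 5.87 CPM against 0.31 to 1.37 CPM, 1.52 ± 0.54, edgeR p = 0.014, exact permutation p = 0.0693) and Acta2 (smooth muscle actin; 9.94 to 30.5 CPM against 9.47 to 19.9 CPM, 0.56 ± 0.26, edgeR p = 0.0499, exact permutation p = 0.102). Rat 17 was highest for both. Without rats 11 and 17, 11 of the 12 markers were tested and 0 called, with Acta2 at 0.19. Cnn1 did not pass the read filter in that fit and was not tested. Without rat 57, 7 were called higher, beside 13.1% of all genes in that fit. Cnn1 was not called without rat 17, and Acta2 was called in 4 of the 12 leave-one-out fits. Of 15 endothelial, 14 fibroblast, 22 interferon-stimulated, 16 glucocorticoid-responsive, 14 heat shock, 5 skeletal muscle and 3 erythroid genes 0 were called. Beside 1.73% of all genes, 0 calls do not set any of these lists apart. Their abundant members include Slco1a4, an organic anion carrier of endothelium (-0.17 ± 0.18, edgeR p = 0.345, exact permutation p = 0.346), Dcn, the matrix proteoglycan decorin (-0.17 ± 0.12, edgeR p = 0.182, exact permutation p = 0.208), and Tsc22d3, the glucocorticoid-induced protein GILZ (-0.10 ± 0.09, edgeR p = 0.28, exact permutation p = 0.335). Cpa3, a protease of mast cells, was the call among 6 mast cell markers, with 1.23 to 3.05 CPM against 2.64 to 4.03 CPM (-0.53 ± 0.22, edgeR p = 0.0288, exact permutation p = 0.0238), and 5 of 6 bPYX+NT3 rats lay below every bPYX+GFP rat. Mpzl2, an adhesion molecule, was the call among 6 perineurial markers (-0.44 ± 0.17, edgeR p = 0.023, exact permutation p = 0.0606). Of the 12 leave-one-out fits, 8 called Cpa3 and 9 called Mpzl2. Of 23 cell cycle genes, Aurkb, a mitotic kinase (0.74 ± 0.26, edgeR p = 0.0152, exact permutation p = 0.0195), and Tk1, a thymidine kinase (0.49 ± 0.22, edgeR p = 0.0453, exact permutation p = 0.0325), were called higher, Tk1 in 4 of the 12 leave-one-out fits. Aurkb averaged 13.75 reads per rat and passed the read filter mainly through bPYX+NT3 rats, so its difference follows in part from the filter. Map3k14, the kinase NIK of noncanonical NF-kB signalling, was the call among 13 NF-kB genes, with 1.53 to 3.16 CPM against 0.845 to 2.41 CPM. Rat 57 was the highest bPYX+GFP rat there, and the log2 fold change was 0.86 ± 0.29 with it (edgeR p = 0.0105, exact permutation p = 0.0152) and 1.21 without it (called). Without rats 11 and 17 the log2 fold change of Map3k14 was 0.70 (not called). Nfil3, a clock-linked repressor, was the call among 13 circadian genes (0.60 ± 0.27, edgeR p = 0.0445, exact permutation p = 0.132). It was called in 5 of the 12 leave-one-out fits, and its log2 fold change was 0.12 without rats 11 and 17. Of 11 epithelial and cornified-envelope genes 5 were called higher (Mall, Padi3, Sprr1a, Ly6g6e and Tgm1), beside 1.08% of all genes, and 1 lower (Ppl, periplakin; -0.36 ± 0.14, edgeR p = 0.0226, exact permutation p = 0.0455), beside 0.654%. Mall and Padi3 passed the read filter mainly through bPYX+NT3 rats, so the share called higher follows in part from the filter. Sprr1a is also counted in the axotomy list. Without rats 11 and 17, 8 of the 11 passed the read filter and 0 of these 8 were called. Mall and Padi3 were not tested in that fit, so its result does not cover them. The median was -0.07 over the 8 and 0.31 over the 11, which are different sets of genes. Tgm1, a transglutaminase of the epidermis, had 1.15 to 12.9 CPM against 0.567 to 4.29 CPM, with exact permutation p = 0.165. Tgm1 was called in 5 of the 12 leave-one-out fits, and its log2 fold change went from 1.44 to 0.10 without rats 11 and 17. The largest log2 fold change among genes called higher was that of Ccl22, a chemokine of macrophages and dendritic cells (2.25 ± 0.75, edgeR p = 0.0102, exact permutation p = 0.0519), but rats 17 and 11 held 12.8 and 3.94 CPM and the other 4 bPYX+NT3 rats 0.635 to 1.07 CPM, against 0.207 to 0.904 CPM in bPYX+GFP rats.

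Among genes lower in bPYX+NT3 rats, Frzb had the smallest p. It encodes a secreted antagonist of Wnt ligands. Its level was 11.4 to 14.7 CPM (median 13.0) in bPYX+NT3 rats, 13.8 to 19 CPM (median 16.7) in bPYX+GFP rats and 9.56 to 14.4 CPM in naïve rats. 5 of 6 bPYX+NT3 rats lay below every bPYX+GFP rat, and the lowest bPYX+GFP rat was rat 57. The log2 fold change was -0.37 ± 0.10 (edgeR p = 0.00206, exact permutation p = 0.00433), and Frzb was called in all 12 leave-one-out fits and without rats 11 and 17 (-0.30). Fzd3, a Wnt receptor needed for axon guidance, had 12.9 to 18.9 CPM against 12.5 to 28.3 CPM (-0.42 ± 0.17, edgeR p = 0.0231, exact permutation p = 0.0693), and Wls, which escorts Wnt proteins to the cell surface, had 107 to 130 CPM against 88.3 to 171 CPM (-0.27 ± 0.13, edgeR p = 0.0528, exact permutation p = 0.134). In both the lowest bPYX+GFP rat was rat 57, and leaving it out gave -0.54 for Fzd3 and -0.37 for Wls. Without rats 11 and 17 they were at -0.32 and -0.22 (neither called).

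Bmpr2, a receptor for bone morphogenetic proteins, had 144 to 203 CPM (median 179) against 156 to 257 CPM (median 212), -0.29 ± 0.11 (edgeR p = 0.0189, exact permutation p = 0.0584). Kcnh7, an Erg-type potassium channel, had 35.3 to 51.8 CPM against 37.2 to 69.2 CPM (-0.37 ± 0.14, edgeR p = 0.0193, exact permutation p = 0.0498), and Cdo1, an enzyme of cysteine breakdown, 52.9 to 78.6 CPM against 62.0 to 93.8 CPM (-0.28 ± 0.11, edgeR p = 0.0214, exact permutation p = 0.0455). All 6 bPYX+NT3 rats lay below the bPYX+GFP median in these 3 genes, but the ranges overlapped. Without rat 52 neither Bmpr2 (-0.22) nor Kcnh7 (-0.30) was called, and Cdo1 was called in 9 of the 12 leave-one-out fits. Zmat4, a zinc-finger protein, had 10.3 to 14.2 CPM against 13.6 to 15.7 CPM (-0.26 ± 0.09, edgeR p = 0.0135, exact permutation p = 0.00649). Serpinb10, a protease inhibitor of blood-forming cells, had 0.987 to 3.25 CPM against 2.61 to 5.12 CPM (-0.99 ± 0.28, edgeR p = 0.00318, exact permutation p = 0.00866). Tmem182, a membrane protein of muscle and fat, had 0.614 to 0.928 CPM against 0.825 to 1.78 CPM (-0.77 ± 0.21, edgeR p = 0.00305, exact permutation p = 0.00649), Tsnaxip1 was at -0.57 ± 0.18 (edgeR p = 0.00773, exact permutation p = 0.00433), and the pseudogene Cmahp was at -1.20 ± 0.45 (edgeR p = 0.0184, exact permutation p = 0.0671). Without rat 21 Cmahp was at -0.81 (not called). Tmem182 averaged 12.4 reads per rat, near the limit of 10 reads. It exceeded that limit in more bPYX+GFP than bPYX+NT3 rats, so its difference follows in part from the filter. Higher in all 6 bPYX+NT3 rats than the bPYX+GFP median, with overlapping ranges, were Slc43a3, a purine transporter (0.31 ± 0.10, edgeR p = 0.0109, exact permutation p = 0.0173), Scube1, a secreted and cell-surface protein (0.65 ± 0.22, edgeR p = 0.0121, exact permutation p = 0.0216), and Rnf138l1 (0.81 ± 0.22, edgeR p = 0.00266, exact permutation p = 0.00433). Without rats 11 and 17 Slc43a3 was at 0.19 and Scube1 at 0.48 (neither called). Rnf138l1 averaged 10 reads per rat and passed the read filter mainly through bPYX+NT3 rats. It was not tested without rat 57.

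Some genes with a small p without rat 57 had that rat on the far side of its own group. Ncam1, a neural adhesion molecule, had 139 to 160 CPM in bPYX+NT3 rats and 121 to 136 CPM in the other 5 bPYX+GFP rats, whereas rat 57 held 173 CPM. Its log2 fold change was 0.16 ± 0.09 in 12 rats (edgeR p = 0.102, exact permutation p = 0.0736) and 0.25 without rat 57 (called). Vwf, the clotting factor of endothelial cells, had 15.9 to 24.6 CPM against 11.0 to 15.4 CPM in those 5 rats and 27.8 CPM in rat 57. Akap9, a scaffold of the centrosome, was lower in bPYX+NT3 rats at 152 to 208 CPM against 211 to 231 CPM in those 5, and rat 57 held 153 CPM. For each of these, rat 57 lay near or beyond the far end of the bPYX+NT3 range. On the first principal component its score was 0.489, whereas the remaining 5 rats of its group spanned -0.330 to -0.0360. The part of read assignment in this was not tested.

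Across the leave-one-out fits, 37 of the 201 genes were called in the 12 rats and in every one of the 12 fits without 1 rat, 29 of them higher and 8 lower. Besides those described, they include the developmental patterning genes Hoxd9 (5.94 to 7.44 CPM against 4.24 to 6.00 CPM, 0.36 ± 0.12) and Hoxb3 (0.48 ± 0.18), the matrix cross-linking enzyme Loxl4 (1.30 to 3.34 CPM against 1.14 to 1.58 CPM, 0.72 ± 0.21) and the hyaluronan synthase Has3 (-0.53 ± 0.19). These 4 were chosen after their values were seen. For Hoxd9 and Loxl4 rats 39 and 23 were highest, respectively, rather than rats 11 and 17. The fits share most of their rats, so that being called in all of them is not independent support.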

How the data were processed

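Each library was sequenced as 50-base paired reads from poly(A) RNA. The authors aligned reads to Rnor_6.0 with TopHat2, removed duplicates with Picard, and deposited raw counts of read-pairs per RefSeq mRNA identifier from HTSeq. Versions of these tools are not given in the sources used here. From the deposited counts, identifiers that exceeded 10 reads in 6 or more of the 12 rats were tested with edgeR 4.0.16 in R 4.3.3 (TMM factors, quasi-likelihood test, two-sided, Benjamini-Hochberg adjustment). Levels are CPM with TMM factors, and exact permutation tests used log2 CPM with a prior count of 2. Each rat is 1 replicate.

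Named genes were the 6 smallest p in each direction, again among genes with at least 100 reads per rat, the 4 largest fold changes in each direction, all neurotrophin and NT3-related genes, up to 3 members of each of the 31 lists, and the 6 smallest p in each direction without rat 57 among genes with at least 100 reads per rat. Some genes that the rule or the tissue check took are not reported here, but count within their lists. The genes, lists and tests were chosen with earlier results of these data known. Of 15075 identifiers with a read, 14193 matched a RefSeq symbol. The alternatives were DESeq2 1.42.0, other scalings, filters, covariates and left-out rats. The scripts were tested on simulated data.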

Additional observations from a re-analysis of the deposited data

Results flagged for a closer look

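In groups of 6 rats, a rat was set apart when its gap to the nearest other rat exceeded Dixon's 95% critical share of the group's range. Of 156 groups examined 16 were set apart in this way, where chance gives about 1 in 20, and 7 of the 12 flags of genes fell on bPYX+GFP rat 57. Of these 7, 5 are on genes named for their p with rat 57 left out (Slc43a3, Ncam1, Vwf, Ncan and Akap9), so that a gap of rat 57 follows in part from their choice and the number of flags cannot be read against chance.

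The values of rat 57 were 58.7 CPM for Slc43a3 (others 45 to 49.6), 173 CPM for Ncam1 (others 121 to 136), 27.8 CPM for Vwf (others 11.0 to 15.4), 26.4 CPM for Ncan (others 18.6 to 20.7) and 153 CPM for Akap9 (others 211 to 231). It also held 0.0687 CPM for Ntf4 (others 0) and 2.41 CPM for Map3k14 (others 0.845 to 1.24).

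The bPYX+NT3 rat 11 was set apart by 158 CPM for Ifi27, an interferon-induced gene (others 103 to 116), and by 2449 CPM for Hsp90ab1, a heat shock chaperone (others 2017 to 2147). Rat 23 held 0.650 CPM for Rnf138l1 (others 0.962 to 1.15) and 42 CPM for Foxc1 (others 21.6 to 27.2). Rat 18 held 0.207 CPM for Ccl22 (others 0.691 to 0.904).

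Read-pairs assigned to no feature made up 30.8% in rat 11 and 31.7% in rat 57, the lowest of their groups, and ambiguous read-pairs 3.41% and 3.31%, the highest. Their part in the values of these rats was not tested.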

How the results depend on the processing

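The edgeR comparison gave 0 genes at an adjusted p under 0.05 in the 12 rats and under each alternative, and the number called at an unadjusted p under 0.05 moved with the processing. Against 201 called genes (125 higher, 76 lower), there were 315 (182 and 133) with no filter on low counts, 133 (81 and 52) with more than 50 reads required, 208 (167 and 41) with library size alone, 263 (135 and 128) with the groups of the recorded titles and 397 (276 and 121) with the multiply aligned share as a covariate. Without rats 57 and 11 it was 1462 (858 and 604) and without rats 11 and 17 it was 71 (31 and 40). Leaving out 1 rat gave 95 to 2291 called genes, 63 to 1509 higher and 29 to 782 lower. The other tests, size factors, filters and fits gave 142 to 255 called genes, the fewest with log2 depth as a covariate (88 higher and 54 lower). With that covariate 35 of the results for single named genes stayed the same, 28 were weaker and 10 changed sign. Median read-pairs were 1.37e+07 in bPYX+NT3 rats and 1.14e+07 in bPYX+GFP rats. By rat number, the rats titled bPYX+NT3 are naïve rats 43, 44, 45 and 49 and bPYX+GFP rats 52 and 57. Those titled bPYX+GFP are bPYX+GFP rat 21, bPYX+NT3 rats 23, 39 and 40 and naïve rats 41 and 42. If the rat numbers hold, the fit with the titles does not compare NT3 with GFP delivery. The fits with the multiply aligned share and without 2 rats were chosen after seeing the data. The cause was not tested in any case. No paired analysis was possible because the rats of the 2 groups share no numbers. Rarely counted genes are limited by depth, since Mall, Padi3 and NM_001008882 averaged 12.3, 13.1 and 10.2 reads per rat.

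With the groups of the recorded titles, the log2 fold change changed sign for Mall -0.60, Padi3 -0.48, Rcan1 -0.10, Slc43a3 -0.11, Scube1 -0.23, Ccl22 -0.21, Csrp3 -0.60, Cnn1 -1.04, Tgm1 -0.54, Ncam1 -0.0517, Vwf -0.20, Ncan -0.24, Tmem182 0.53, Tsnaxip1 0.45, Adipoq 1.27, Zmat4 0.21, Bmpr2 0.0404, Kcnh7 0.081, Cdo1 0.0218, Fabp4 1.04, Wls 0.0488, Fzd3 0.21, Akap9 0.0165, Bdnf -0.38, Ngfr -0.0851, Sort1 0.0919, Kidins220 0.0283, Rasgef1c -0.0658, Rtn4ip1 -0.0637, Vgf -0.21, Junb -0.41, Egr1 -0.39, Kcna2 0.13, Scn9a 0.0617, Arg1 -0.0506, Ecel1 -0.53, Plxdc1 -0.30, Vamp1 0.10, Pmp22 0.26, Hmgcs1 0.17, Slco1a4 0.13, Acta2 -0.29, Cpa3 0.64, Aurkb -0.59, Tk1 -0.14, Map3k14 -0.49, Nfil3 -0.0309 and Rad51ap1 -0.12. By rat number these title groups do not compare NT3 with GFP delivery, so the signs above do not test the main comparison. With log2 depth as a covariate, the log2 fold change changed sign for Sort1 0.000238, Scn9a 0.00383, Pmp22 0.0379, Hmgcs1 0.0501, Slco1a4 0.0191, Pvalb -0.0869, Hbb -0.39, Pdgfra 0.0299, Ifi27 -0.0558 and Hsp90ab1 -0.0686. With the share of read-pairs outside features as a covariate, the log2 fold change changed sign for Pmp22 0.00356, Hmgcs1 0.00945, Lyz2 -0.00711, Pvalb -0.0493, Hbb -0.27, Ifi27 -0.0313 and Hsp90ab1 -0.052. With the multiply aligned share as a covariate, the log2 fold change changed sign for Pvalb -0.00894, Hbb -0.12 and Hsp90ab1 -0.0286. With library size alone, the log2 fold change changed sign for Sort1 0.0275 and Pmp22 0.035. Without rats 57 and 11, the log2 fold change changed sign for Sort1 0.0315, Pmp22 0.0285, Hbb -0.11 and Hsp90ab1 -0.00913. Without rats 11 and 17, the log2 fold change changed sign for Sort1 0.0338, Pmp22 0.0151, Lyz2 -0.32, Pvalb -0.00666, Hbb -0.32, Ifi27 -0.039 and Hsp90ab1 -0.0423. With more than 50 reads required, the log2 fold change changed sign for Pmp22 0.00381. With DESeq2, the log2 fold change changed sign for Hsp90ab1 -0.00174. With DESeq2's size factors, the log2 fold change changed sign for Hsp90ab1 -0.00176. With no filter, the log2 fold change changed sign for Hsp90ab1 -0.000355. The difference of Sort1 in log2 CPM was 0.0277 without TMM. Leaving out 1 rat at a time turned the sign of Sort1 (-0.0311 to 0.016), Pmp22 (-0.0478 to 0.0472), Lyz2 (-0.23 to 0.18), Pvalb (-0.0402 to 0.13), Hbb (-0.29 to 0.29), Ifi27 (-0.0329 to 0.13) and Hsp90ab1 (-0.0444 to 0.031), given as the range over the 12 fits.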

Other observations

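The genes below were called higher and were picked singly after their values were seen, and no list was tested. Ahr, the aryl hydrocarbon receptor, was at 26.9 to 35.7 CPM in bPYX+NT3 rats and 22.3 to 29.2 CPM in bPYX+GFP rats (log2 fold change 0.25 ± 0.09). Ahrr, a repressor of that receptor, was at 2.36 to 3.30 CPM against 1.86 to 2.37 CPM (0.38 ± 0.14), and Cyp1b1, a cytochrome P450 enzyme, at 13.0 to 19.4 CPM against 10.1 to 15.4 CPM (0.35 ± 0.13). For Ahrr 5 of 6 bPYX+NT3 rats lay above all bPYX+GFP rats. Naïve rats spanned 1.91 to 3.23 CPM for Ahrr, a range that covers both injured groups in large part.

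Cxcl14, a chemokine, was at 0.371 to 3.43 CPM against 0.691 to 1.32 CPM (1.02 ± 0.37), with 5 bPYX+NT3 rats above and rat 23 below every bPYX+GFP rat. P2ry2, a purinergic receptor for ATP and UTP, was at 7.79 to 11.0 CPM against 6.17 to 8.98 CPM (0.36 ± 0.14).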
